A study of Mus musculus with 40 samples.

Results

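The miRNAs described here are the 4 mature miRNAs of the miR-204 and miR-211 hairpins, mmu-miR-204-5p, mmu-miR-204-3p, mmu-miR-211-5p and mmu-miR-211-3p, of 1978 mature mouse miRNAs counted in the series. They were selected by name as choroid plexus linked miRNAs, with the precursor of the highest total count where several are listed. Each of the 4 was listed with 1 precursor, so that no measured value decided which counts were used. Small RNA was sequenced from the CA1 region of the hippocampus of 40 mice on a C57Bl/6J background, with 1 library per mouse. CaMKIIδC transgenic (TG) mice overexpress a form of a calcium/calmodulin-dependent kinase and served as a model of heart failure, and the control mice were wild-type littermates without the transgene. At 3 months of age there were 5 wild-type and 9 TG mice, and at 6 months 15 wild-type and 11 TG mice. Male and female mice were used, and the labels do not give the sex of a mouse or the promoter of the transgene. The labels of 3-month wild-type mice 1 and 2 disagree, since their titles say wild-type but their genotype entries say TG, and they were placed by title.

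A miRNA hairpin is cut into a 5p and a 3p strand, of which one is usually retained to guide the silencing of mRNAs that match its seed, bases 2 to 8. miR-204 is known for its high level in the choroid plexus, the epithelium that makes cerebrospinal fluid, and in the retinal pigment epithelium. miR-211 is best known from melanocytes. The hosts of both are genes of the TRPM family of cation channels: Trpm3 is expressed in the choroid plexus, and Trpm1 in melanocytes and in bipolar cells of the retina.

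The mature sequences are shown because the 2 loci are nearly alike in one arm and unlike in the other. They are given 5′ to 3′ from RefSeq (GRCm38.p6), in which all 4 members were matched, with the seed in capitals.
miR-204-5p: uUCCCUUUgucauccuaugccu
miR-211-5p: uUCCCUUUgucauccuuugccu
miR-204-3p: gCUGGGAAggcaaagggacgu
miR-211-3p: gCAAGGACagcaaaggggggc
The 5p arms are both 22 bases long, share the seed UCCCUUU and differ by 1 substitution, A17U, counted from 1 at the 5′ end with the base of miR-204-5p first. The first 16 and the last 5 bases are identical. The seeds of the 3p arms differ from each other and from that of the 5p arms. Outside the family, the 5p seed was shared by miR-7670-3p, with 20 reads over the 40 libraries, and the seed of miR-204-3p by miR-7684-5p, with 1 read.

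The hairpins place the arms in their precursors. They are given on the + strand with the mature arms in capitals, Mir204 at chr19:22750605-22750672 and Mir211 at chr7:64205806-64205911.
Mir204: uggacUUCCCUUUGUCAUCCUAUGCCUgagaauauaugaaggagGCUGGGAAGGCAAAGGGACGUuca
Mir211: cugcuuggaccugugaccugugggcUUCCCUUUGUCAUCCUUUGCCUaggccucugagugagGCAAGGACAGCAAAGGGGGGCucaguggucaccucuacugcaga
In the GENCODE annotation, Mir204 (ENSMUSG00000065507) lies within Trpm3 (ENSMUSG00000052387, chr19:22139046-22995410), on the same strand. It is covered by 18 Trpm3 transcripts and touches 0 of their exons, and is thus intronic. Mir211 (ENSMUSG00000065585) lies within Trpm1 (ENSMUSG00000030523, chr7:64153835-64269775), also on the same strand, where 12 transcripts cover it and 0 exons touch it. The mRNA of the hosts was not analysed here.

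Total counts per library ranged from 2656368 to 36547011, and miRNA counts from 1926108 to 22892729. A floor of 3 counts thus corresponds to 0.131 to 1.56 CPM, the count scaled by library size, which covers counting error only. This floor was computed before TMM normalization, which the levels below carry, so it is to be set against counts rather than those levels. The 3-month libraries were deeper, with median miRNA counts of 18431486 in TG and 14340558 in wild-type mice against 9239179 and 9893109 at 6 months. The neuronal miRNAs miR-9-5p and miR-128-3p had mean levels of 75701 and 164725 CPM. miR-196a-5p and miR-196b-5p, miRNAs of the Hox clusters of the hindbrain and spinal cord, were each detected in 5 of 40 libraries. miR-10a-5p and miR-10b-5p, also listed for other brain regions than the hippocampus, had reads in 40 of 40 libraries. Their mean levels were 123 and 22.5 CPM.

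miR-204-5p accounted for most reads of the family. It had 315960 reads over the 40 libraries and a mean of 686 CPM, the 95th highest of 1695 miRNAs with any read. miR-211-5p followed with 15182 reads and 34.1 CPM (276th), and miR-204-3p with 6849 reads and 15.1 CPM (328th). miR-211-3p had 3 reads in all, 1 read in each of 3 of the 40 libraries, namely 2 TG mice at 3 months and 1 TG mouse at 6 months. These counts are below the floor, and no difference in miR-211-3p was detectable at this depth. The 3p arm was 2.12% of the reads of the miR-204 hairpin (95% exact interval 2.07% to 2.17%) and 0.0198% of those of the miR-211 hairpin (0.00407% to 0.0577%). Both intervals cover counting error only. CPM compares reads, and the efficiency with which each sequence was captured was not measured.

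In single mice, miR-204-5p was lowest in 3-month TG mice and highest in 6-month mice. The 3-month wild-type mice 1 to 5 had 590, 349, 607, 485 and 794 CPM, with a mean of 565 ± 164 (SD, n = 5). The 3-month TG mice ranged from 278 to 713 CPM with a median of 417 and a mean of 430 ± 129 (n = 9). Only TG mouse 8 was above the wild-type mean in that group. At 6 months, wild-type mice ranged from 505 to 1669 CPM with a median of 796 and a mean of 804 ± 263 (n = 15). The 6-month TG mice ranged from 608 to 967 CPM with a median of 772 and a mean of 789 ± 116 (n = 11). The order of the means was thus 6-month wild-type, 6-month TG, 3-month wild-type and 3-month TG. The genotypes differed by less than the larger of their SDs at each age, the means of 6-month TG and 3-month wild-type mice differed by more than either SD, and mice of neighbouring groups overlapped in each case.

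miR-211-5p, the arm that shares the seed, had nearly the same order at a lower level. The 3-month wild-type mice had 32.7, 17.0, 29.1, 23.8 and 44.5 CPM, with a mean of 29.4 ± 10.3 (n = 5). The 3-month TG mice ranged from 11.1 to 36.3 CPM with a median of 18.3 and a mean of 19.7 ± 7.79 (n = 9). TG mouse 8 was again the highest of its group and the only one above the wild-type mean. The 6-month wild-type mice ranged from 27.8 to 70.8 CPM with a median of 37.9 and a mean of 39.3 ± 9.87 (n = 15). The 6-month TG mice ranged from 30.5 to 55.2 CPM with a median of 38.8 and a mean of 40.7 ± 7.88 (n = 11), so that the 6-month means differed by less than the spread in each group.

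miR-204-3p, the strand opposite miR-204-5p, varied less between groups. The 3-month wild-type mice had 12.2, 11.6, 14.7, 13.8 and 18.5 CPM, with a mean of 14.2 ± 2.71 (n = 5). The 3-month TG mice ranged from 8.49 to 18.7 CPM with a median of 11.7 and a mean of 12.3 ± 3.57 (n = 9). At 6 months the range was 11.6 to 23.2 CPM in wild-type mice (median 15.5, mean 16.1 ± 3.53, n = 15) and 10.3 to 28.2 CPM in TG mice (median 14.3, mean 16.6 ± 6.03, n = 11). The ranges of all 4 groups overlapped.

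**Figure D1:**
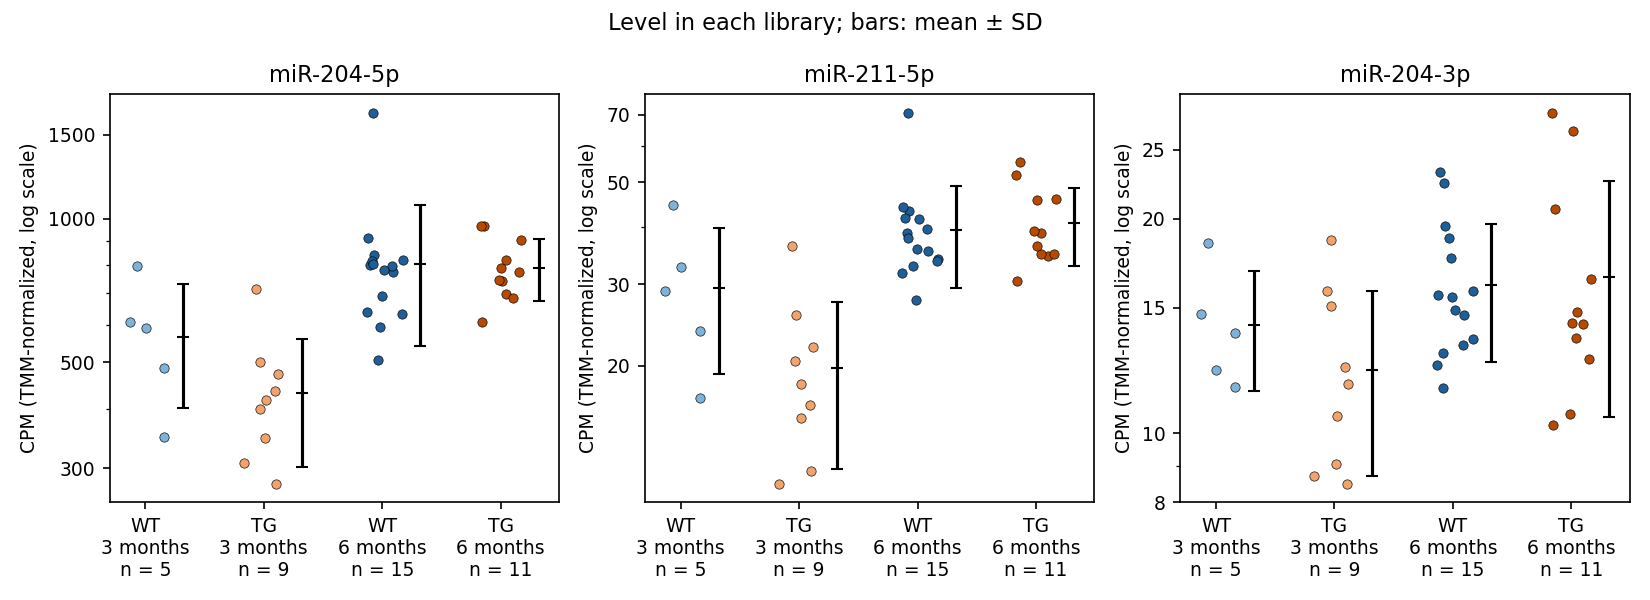
Level of miR-204-5p, miR-211-5p and miR-204-3p in each library, in TMM-normalized CPM on a log scale. Points are mice and bars give the mean ± SD of the 5 or 9 mice at 3 months and the 15 or 11 mice at 6 months. Most 3-month TG mice lie below the 6-month mice for both 5p arms, and 6-month wild-type mouse 8 stands above all others at 1669 and 70.8 CPM.

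Between 3 and 6 months, miR-204-5p and miR-211-5p rose in TG mice, about 2 times in the case of miR-211-5p. With edgeR's quasi-likelihood test, the log2 fold change of miR-204-5p was 0.89 (SE 0.155, adjusted p = 0.000602), a fold of 1.86 with a 95% interval of the log2 change of 0.57 to 1.21. That of miR-211-5p was 1.07 (SE 0.197, adjusted p = 0.00103), a fold of 2.10 with an interval of 0.66 to 1.48. miR-204-3p had a log2 fold change of 0.44 (SE 0.212) and was not called with an adjusted p of 0.150. All 11 mice at 6 months were above the mean of the 9 mice at 3 months for both 5p arms, and 8 of 11 (miR-204-5p) and 7 of 11 (miR-211-5p) were above the highest 3-month mouse, TG mouse 8. A call required an adjusted p below 0.05 together with an absolute log2 fold change above 0.26. By this rule, 2 of the 3 members tested were called, against 15.7% of the 629 miRNAs tested, and 7.47% were called higher at 6 months. miR-211-5p had the 8th and miR-204-5p the 21st highest log2 fold change of the 629. The miRNAs were chosen with earlier results of these data known, among them this comparison, so that these p-values describe the 2 arms and are not independent evidence. In bulk tissue, a change in the number of cells of a type and a change in RNA per cell cannot be told apart. Whether the libraries of the 3-month and 6-month mice differed in preparation was not tested. Such a difference could not be told apart from age.

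Depth moved with age in both genotypes, and beside the rise in TG mice stand these values. Among the 9 TG mice at 3 months, miR-211-5p was lower in deeper libraries (Pearson's r = -0.73, Spearman's rho = -0.78, exact permutation adjusted p = 0.0847 and 0.062). Without the 2 libraries farthest from the median depth, r was -0.60. For miR-204-5p, r was -0.62 and rho -0.57 (exact permutation adjusted p = 0.160 and 0.241). In the 6-month groups, r between depth and either 5p arm lay between -0.16 and 0.073 and rho between -0.32 and 0.29, with no adjusted p past the threshold. Without the 2 libraries farthest from the median depth, r in 6-month wild-type mice was -0.40 for miR-204-5p and -0.47 for miR-211-5p, and in 6-month TG mice 0.12 and -0.17. Without them it was -0.50 for miR-204-5p in 3-month TG mice. With the log2 of depth as a covariate, edgeR gave log2 fold changes between ages in TG mice of 0.80 for miR-204-5p (adjusted p = 0.0035) and 0.93 for miR-211-5p (adjusted p = 0.00556), so that both calls held. The value of miR-204-3p dropped to 0.11 (adjusted p = 0.759).

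In wild-type mice, none of the members was called between 3 and 6 months. The log2 fold changes were 0.50 for miR-204-5p (SE 0.220, adjusted p = 0.301), 0.41 for miR-211-5p (SE 0.207, adjusted p = 0.347) and 0.17 for miR-204-3p (SE 0.179, adjusted p = 0.683) in edgeR's quasi-likelihood test. The 95% interval was 0.048 to 0.96 for miR-204-5p and -0.014 to 0.84 for miR-211-5p. For each 5p arm, 14 of 15 mice at 6 months were above the 3-month mean. Of the 660 miRNAs tested, 0.152% were called, which is 1 miRNA, and 102 had an unadjusted p under 0.05, with miR-204-5p among them (unadjusted p = 0.0316 from edgeR). Without 3-month mice 1 and 2, whose labels disagree, the log2 fold changes were 0.35, 0.27 and 0.018 in the same order. They were 0.37, 0.27 and 0.10 without mouse 2 alone, and 0.66, 0.62 and 0.28 without mouse 5, with adjusted p of at least 0.153 in each of these fits. With the log2 of depth as a covariate they were 0.46, 0.34 and 0.030 (edgeR adjusted p = 0.575, 0.681 and 0.980).

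**Figure D2:**
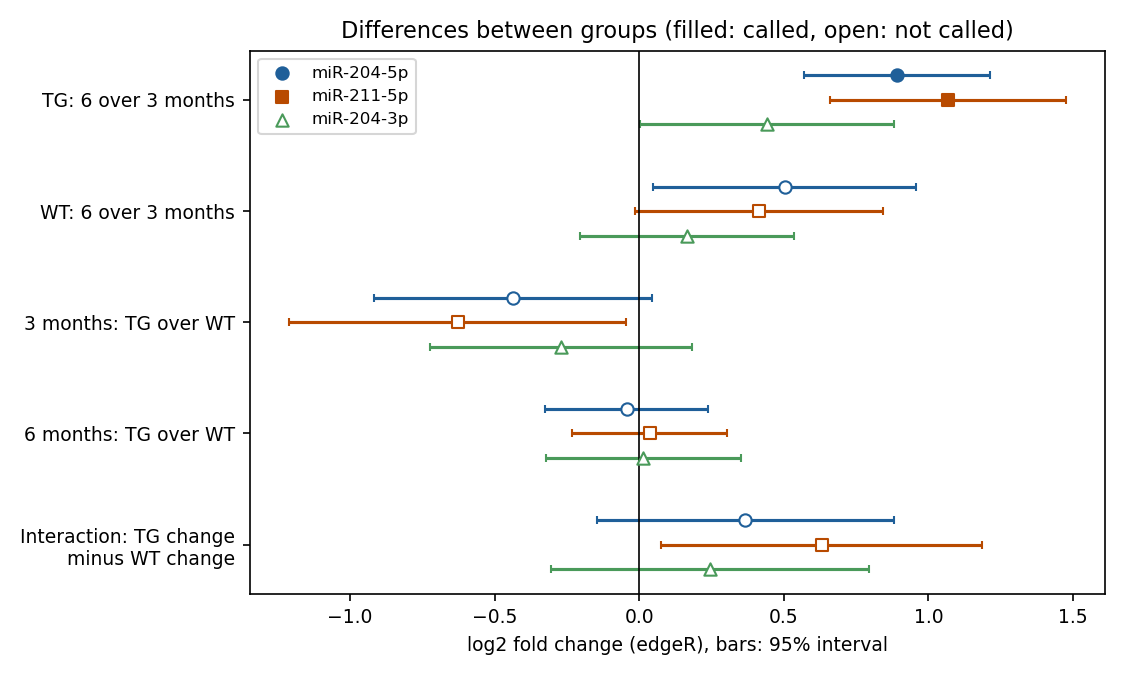
Log2 fold changes of the 3 members tested in each of the 5 comparisons, from edgeR, with 95% intervals as bars. Filled symbols mark called miRNAs and open symbols the others. The 5p arms in TG mice, at 0.89 and 1.07, are the 2 filled symbols, and the 6-month differences between genotypes lie near 0.

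Between genotypes at 3 months, both 5p arms had lower means in TG than in wild-type mice without being called. The log2 fold change of TG over wild-type was -0.44 for miR-204-5p (SE 0.228, 95% interval -0.92 to 0.045), -0.63 for miR-211-5p (SE 0.276, -1.21 to -0.044) and -0.27 for miR-204-3p (SE 0.215, -0.72 to 0.18), each with an edgeR adjusted p of 0.998. In 8 of 9 TG mice each 5p arm was below the wild-type mean. Of the 695 miRNAs tested, 0 (0%) were called and 7 had an unadjusted p under 0.05, of which miR-211-5p was one (unadjusted p = 0.0365 from edgeR). DESeq2 also called 0. Without wild-type mice 1 and 2, the log2 fold changes were -0.58, -0.76 and -0.40, and with these mice counted as TG they were -0.52, -0.65 and -0.36. Without wild-type mouse 5, which had the highest level of its group in all 3 members, they were -0.28, -0.42 and -0.15. At the median, the 3-month TG libraries were deeper than the wild-type ones. With the log2 of depth as a covariate, the log2 fold changes were -0.30, -0.43 and -0.20 (edgeR adjusted p = 0.539, 0.524 and 0.629).

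At 6 months the genotypes differed by little in all 3 members. The log2 fold change of TG over wild-type was -0.043 for miR-204-5p (95% interval -0.32 to 0.24), 0.036 for miR-211-5p (-0.23 to 0.30) and 0.014 for miR-204-3p (-0.32 to 0.35), with edgeR adjusted p from 0.992 to 0.999. Of the 612 miRNAs tested, 0 (0%) were called by edgeR and by DESeq2, and 3 had an unadjusted p under 0.05. The signs of these small values depended on the scaling: that of miR-211-5p was negative with library total scaling, and that of miR-204-3p with RLE or library total scaling.

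The difference between the age changes of TG and wild-type mice was tested as an interaction over the 4 groups. It was 0.63 for miR-211-5p on the log2 scale (SE 0.275, 95% interval 0.076 to 1.19), 0.37 for miR-204-5p (SE 0.254, -0.15 to 0.88) and 0.25 for miR-204-3p (SE 0.272, -0.30 to 0.79). The edgeR adjusted p was 0.986 for each, and the unadjusted p of miR-211-5p was 0.0268. Of the 699 miRNAs tested, 0 (0%) were called by edgeR and by DESeq2, and 14 had an unadjusted p under 0.05. The age change called in TG mice was thus not shown to differ from that in wild-type mice. Without wild-type mice 1 and 2 the interaction of miR-211-5p was 0.76 and that of miR-204-5p 0.50 (adjusted p = 0.993 for both). Without 3-month wild-type mouse 5 they were 0.43 and 0.21 (adjusted p = 0.998 for both), and that of miR-204-3p was 0.13. The age comparisons and the genotype comparisons share groups of mice: the 3-month TG mice enter the age comparison in TG mice, the genotype comparison at 3 months and the interaction.

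The proportion of the 5p arms varied less within each group than the level of either arm. miR-211-5p reads were 5.14% ± 0.394 of miR-204-5p reads in 3-month wild-type mice (SD, n = 5), 4.49% ± 0.566 in 3-month TG mice (n = 9), 4.98% ± 0.558 in 6-month wild-type mice (n = 15) and 5.15% ± 0.476 in 6-month TG mice (n = 11). Over the 40 libraries the percentage ran from 3.61 to 6.53, while the level of miR-204-5p ran from 278 to 1669 CPM. The coefficient of variation of the percentage was 7.67% to 12.6% in the 4 groups, where counting error alone gives 5.07% to 6.15%. On the log2 scale, the ratio was 0.20 lower in TG than in wild-type mice at 3 months, and 8 of 9 TG mice were below the wild-type mean (exact permutation test, two-sided p = 0.0410, adjusted p = 0.184 over 9 ratio tests). It differed by -0.048 between 6 and 3 months in wild-type mice (exact permutation adjusted p = 0.776) and by 0.048 between genotypes at 6 months (permutation adjusted p = 0.767). In TG mice it was 0.20 higher at 6 than at 3 months, and 10 of 11 mice were above the 3-month mean, given here without a test.

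Since the 5p arms differ at 1 base of 22 and the 3p arm of miR-211 is near 0, reads of miR-204-5p with an error at that base could be counted as miR-211-5p. Whether such reads contribute to the counts of miR-211-5p was not tested, because the deposited counts hold no single reads, and the values of the 2 arms are therefore uncertain as separate measures.

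The proportion of the strands of the miR-204 hairpin varied more than that of the 5p arms. There were 39.5 ± 7.03 reads of miR-204-5p per read of miR-204-3p in 3-month wild-type mice (SD, n = 5), 35.7 ± 6.62 in 3-month TG mice (n = 9), 50.8 ± 13.2 in 6-month wild-type mice (n = 15) and 51.3 ± 12.2 in 6-month TG mice (n = 11). The lowest and highest libraries had 21.4 and 74.4. The coefficient of variation was 17.8% to 26.1% in the 4 groups, where counting error alone gives 7.18% to 9.28%. A relation of this ratio to depth was not tested. At 6 months, TG mice 9 and 8 and wild-type mice 4 and 5 had the fewest miRNA counts. Their ratios were 27.8, 34.2, 26.9 and 34.5. Wild-type mouse 8, the next in depth, had 74.4, and wild-type mouse 2, with 11242515 miRNA counts, had 33.7. At 3 months, TG mice 8 and 3 had the fewest miRNA counts of their group, 8888162 and 8939169. Their ratios of 45.1 and 21.4 were the highest and the lowest of that group. In wild-type mice the log2 ratio was 0.33 higher at 6 months (12 of 15 mice above the 3-month mean, exact permutation adjusted p = 0.355). Between genotypes it differed by -0.16 at 3 months (exact permutation adjusted p = 0.767) and by 0.020 at 6 months (permutation adjusted p = 0.905). In TG mice the log2 ratio was 0.50 higher at 6 than at 3 months and 9 of 11 mice were above the 3-month mean, which was not tested. The strand ratio of miR-211 rests on 3 reads of the 3p arm and is not given.

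**Figure D3:**
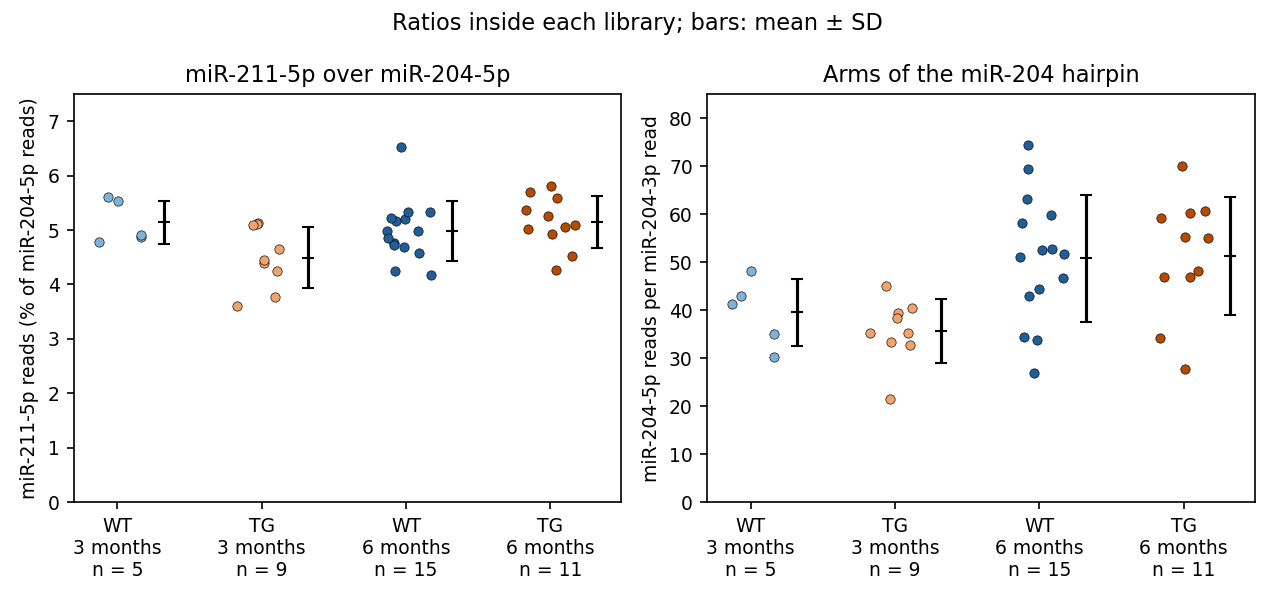
Ratios of reads within each library by group: miR-211-5p in % of miR-204-5p on the left, and miR-204-5p reads per miR-204-3p read on the right. Points are mice and bars are mean ± SD. The percentages stay between 3.61 and 6.53, and the strand ratio spans 21.4 to 74.4.

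Within groups, the 5p arms varied together from mouse to mouse. The Pearson correlation of their log2 CPM was 0.96 in 3-month TG mice (n = 9, Spearman's rho 0.92, exact permutation adjusted p = 0.00112 and 0.0118). It was 0.92 in 6-month wild-type mice (n = 15, rho 0.82, permutation adjusted p = 0.00072 and 0.00486) and 0.87 in 6-month TG mice (n = 11, rho 0.82, permutation adjusted p = 0.0033 and 0.0184). Without the 2 mice farthest from the median of miR-204-5p, r was 0.91, 0.86 and 0.75. The strands of miR-204 were less closely related, with r of 0.72, 0.32 and 0.61 and rho of 0.73, 0.20 and 0.54 in the same groups (permutation adjusted p of r = 0.0847, 0.375 and 0.115, exact for the 9 mice), and r of 0.60, 0.13 and 0.45 without the 2 farthest mice. Between miR-211-5p and miR-204-3p, r was 0.79 in 3-month TG mice (rho 0.82, exact permutation adjusted p = 0.0490 and 0.0485, r = 0.74 without the 2 farthest mice), 0.44 in 6-month wild-type mice (rho 0.32) and 0.59 in 6-month TG mice (rho 0.68), of which only the first passed the threshold. Without the 2 farthest mice, r was 0.33 and 0.26 in the 6-month groups. In all, 18 such correlations were computed and adjusted together, and the 3-month wild-type group with 5 mice was not used.

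**Figure D4:**
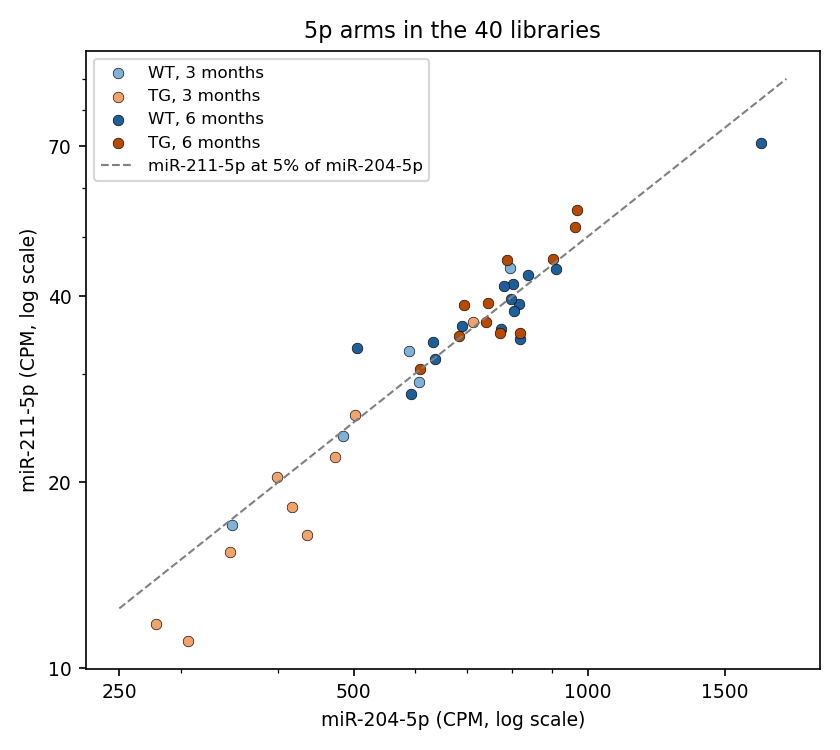
miR-211-5p against miR-204-5p in the 40 libraries, both in CPM on log scales, with 1 point per mouse coloured by group. The dashed line marks miR-211-5p at 5% of miR-204-5p. Points lie on both sides of the line, from 278 to 1669 CPM of miR-204-5p.

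The miRNAs whose levels were most like those of the 5p arms were sought among the other 360 of 361 miRNAs whose mean reached 10 CPM. The measure was Spearman's rho over the 40 libraries after subtraction of the group means, a description because all values share the scaling of a library. Closest to miR-204-5p was miR-211-5p (rho 0.89), followed by miR-344d-3-5p (0.57), miR-344c-3p (0.56), miR-137-5p (0.54) and the opposite strand miR-204-3p (0.53). Closest to miR-211-5p was miR-204-5p, followed by miR-146b-5p (0.69), miR-344d-3-5p (0.67), miR-1947-5p (0.65) and miR-137-5p (0.64), with miR-204-3p 11th (0.59). Apart from the family itself, miR-344d-3-5p and miR-137-5p appeared for both arms. Since the arms varied together over the same libraries (rho 0.89), their lists are not independent of each other.

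Of the other miRNAs listed for the choroid plexus and ciliated epithelium, those of higher level were compared with the 5p arms, and the correlations were weak. How specific each listed miRNA is to these tissues was not tested, so the list does not measure how much of them a sample held. The list held 14 miRNAs of the miR-200, miR-34/449 and miR-183 families, of which miR-182-5p (142 CPM), miR-34c-5p (135 CPM), miR-200b-3p (97.1 CPM) and miR-183-5p (78.6 CPM) had the highest means. None was at 0 in all libraries, and miR-449c-5p was detected in 7 of 40. The summed level ranged from 337 to 839 CPM in 3-month wild-type mice (median 423), 406 to 747 CPM in 3-month TG mice (median 662), 268 to 1159 CPM in 6-month wild-type mice (median 503) and 281 to 1268 CPM in 6-month TG mice (median 577). Of the 7 list miRNAs whose mean reached 10 CPM, rho with miR-204-5p lay between -0.22 and 0.019, and with miR-211-5p between -0.25 and 0.21. Within groups, r between the summed list and miR-204-5p was 0.44 in 3-month TG mice, 0.080 in 6-month wild-type mice and -0.017 in 6-month TG mice, with rho of 0.22, -0.22 and -0.064. The permutation adjusted p for r was 0.375, 0.872 and 0.963, exact for the 9 mice.

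Between 3 and 6 months in TG mice, 12 of the 14 list miRNAs were tested, 0 were called higher and 1 lower, with a median log2 fold change of -0.091, beside -0.088 over all miRNAs. The one that fell was miR-200c-3p, an epithelial miRNA, with a log2 fold change of -0.71 (adjusted p = 0.0425 from edgeR). Its level was low, with means of 3.05 CPM at 3 months and 1.82 CPM at 6 months in TG mice. The more abundant miR-200a-3p and miR-200b-3p of the same family were not called, with log2 fold changes of -0.36 and -0.069. Of the list, 0 were called in this comparison without the low-count filter, in the joint fit of the 4 groups and with the depth covariate, 2 with the replicate block and 3 with DESeq2 and 1 RUVr factor. In the other comparisons 0 of the list were called, but 3 were in the wild-type age comparison with the replicate block.

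Markers of other cell types also moved between ages in TG mice, and their part in the rise of the 5p arms was not tested. Among neuronal miRNAs, 1 of 6 was called, miR-128-3p, which rose by 0.73 on the log2 scale. The others of highest level, miR-9-5p, miR-9-3p and miR-124-3p, were not called, with log2 fold changes of -0.17, -0.16 and -0.66. Of the 6, 3 had higher and 3 lower values at 6 months. Of 4 oligodendrocyte miRNAs, miR-219a-2-3p and miR-338-3p, which act in myelination, were called lower with log2 fold changes of -0.57 and -1.02. miR-338-5p and miR-219a-5p were not called, at -0.25 and -1.13. The summed oligodendrocyte level was 1601 to 2827 CPM at 3 months and 1045 to 1863 CPM at 6 months. Of 4 vessel miRNAs, the endothelial miR-126a-3p rose by 0.73. miR-143-3p, miR-126a-5p and miR-145a-5p were not called, with log2 fold changes of 0.28, -0.33 and 0.029. The summed vessel level was 9581 to 16930 CPM at 3 months and 13227 to 21002 CPM at 6 months. Of 5 blood miRNAs, the erythroid miR-451a rose by 0.68, miR-144-3p and miR-486a-3p had log2 fold changes of -0.98 and -2.14, and miR-486a-5p and miR-144-5p were not called. The summed blood level was 452 to 1462 CPM at 3 months and 650 to 1216 CPM at 6 months, and the neuronal sum 173280 to 322108 and 203904 to 367214 CPM. Of 5 miRNAs of microglia and leukocytes (miR-146a-5p, miR-142a-5p, miR-142a-3p and miR-155-5p the highest) 0 were called, with sums of 233 to 358 CPM and 260 to 670 CPM. Of 4 miRNAs of other brain regions (miR-10a-5p, miR-10b-5p, miR-196a-5p and miR-196b-5p) 2 were tested and 0 called, with sums of 39.3 to 238 CPM and 76.0 to 729 CPM. The median log2 fold changes of these lists were -0.021 (neurons), -0.79 (oligodendrocytes), 0.15 (vessels), -0.44 (blood), -0.015 (microglia and leukocytes) and 0.30 (other brain regions), beside -0.088 over all 629 miRNAs. With the main test, none of the listed miRNAs was called in the wild-type age comparison, between genotypes at either age or in the interaction.

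One library stood apart in the members, that of 6-month wild-type mouse 8. It had 1669 CPM of miR-204-5p, against 742 ± 113 in the other 14 mice of its group (SD), and 70.8 CPM of miR-211-5p, against 37.1 ± 4.81. Both were the highest of the 40 libraries, and miR-204-3p was the 4th highest with 22.4 CPM. Relative to the median of the other 14 mice these were 2.12, 1.92 and 1.47 times. In the same library the choroid plexus list was split, and these miRNAs were looked at after the values of the members were seen. miR-34c-5p and miR-34b-5p, miRNAs of multiciliated cells, were at 5.78 and 5.55 times the median, the highest and second highest of 361 miRNAs, followed by miR-10b-5p at 5.30 times. The epithelial miR-200b-3p was at 0.189 times, and miR-200a-3p, miR-200b-3p and miR-429-3p were each the lowest of the 40 libraries. The summed list was at 989 CPM, the 3rd highest of 40. Without this mouse, the log2 fold changes between ages in wild-type mice were 0.39 for miR-204-5p and 0.33 for miR-211-5p (adjusted p = 0.326 and 0.399), and 0.074 and 0.12 between genotypes at 6 months (adjusted p = 0.998 for both).

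**Figure D5:**
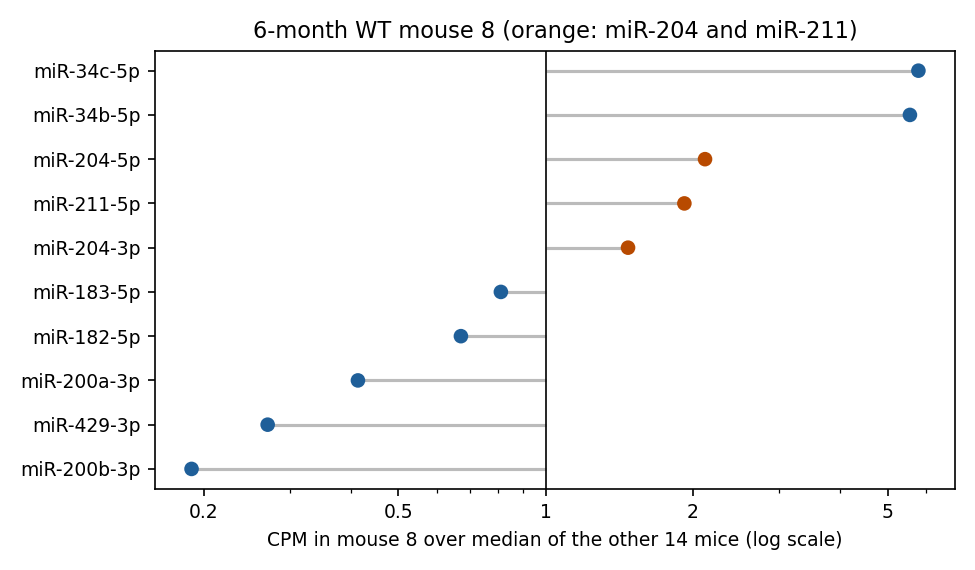
CPM in 6-month wild-type mouse 8 divided by the median of the other 14 mice of the group, on a log scale, for the 3 detected members (orange) and the 7 miRNAs of the choroid plexus and ciliated epithelium list whose mean reached 10 CPM (blue). The vertical line marks the median. miR-34c-5p and miR-34b-5p are highest at 5.78 and 5.55, the members lie at 1.47 to 2.12, and miR-200b-3p is lowest at 0.189.

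Mouse 8 also set much of the spread of the members in its group. The coefficient of variation over 6-month wild-type mice was 32.7% for miR-204-5p and 25.1% for miR-211-5p with this mouse, and 15.2% and 13.0% without it. In 6-month TG mice it was 14.7% and 19.4%. With all 15 wild-type mice, 51.0% of the 361 miRNAs had a lower coefficient than miR-204-5p and 32.7% a lower one than miR-211-5p. The median coefficient was 32.5%. In the 14 mice without mouse 8, 8.31% and 2.49% had a lower one, and the median was 32.01%. Mouse 8 was picked as the highest in both 5p arms, so leaving it out lowers their coefficients by choice. The ranks over 14 mice thus do not show that the members vary less than other miRNAs. At 3 months the coefficients of the 5p arms were 29.1% and 34.99% in wild-type and 30.01% and 39.5% in TG mice, where the medians of the 361 miRNAs were 26.2% and 39.2%. Counting error alone gives 1.12% to 1.36% for miR-204-5p and 4.95% to 6.00% for miR-211-5p. With 1 library per mouse, differences between mice and those from library preparation cannot be told apart.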

How the data were processed

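The deposited raw counts were used. The authors trimmed 3′ adapters with cutadapt, aligned the reads to mm10 with the mapper of mirdeep2, annotated miRNAs with miRBase and counted reads on each pair of miRNA and precursor with its quantifier, without normalization. The submitters' processing notes also name bcl2fastq 2.20.2 and FastQC 0.11.5. Their library-size normalized values were not used. Of 2128 pairs, the precursor row with the highest total represented each of 1978 miRNAs, and 52 spike-in entries were left out. No libraries held identical counts.

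For each comparison, the mice of the groups compared were fitted alone, and all 40 for the interaction, with edgeR 4.0.16 (R 4.3.3): filterByExpr (minimum count 10, minimum total 15), TMM, robust quasi-likelihood F test and Benjamini-Hochberg adjustment over all miRNAs tested. CPM are TMM-normalized. miR-211-3p did not pass the filter, so 3 of 4 members were tested. Ratios used log2 of counts with 0.5 added, and correlations and ratios were tested by two-sided permutation in scipy 1.17.1, exact for groups under 10 mice, otherwise with 100000 resamples. Scripts were tested on simulated data. Alternatives were DESeq2 1.42.0, also with 1 RUVr factor computed from its definition, other scalings, no filter, a replicate block, a joint fit, and mice left out or regrouped. Leaving out mouse 8 and the depth covariate were added after the data were seen.

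The members and marker lists were chosen with earlier results of these data known. The named miRNAs are the members, those sharing a seed, the 5 most alike for each 5p arm, and of each list up to 4 with the highest level and each one called. miR-449c-5p, miR-34b-5p, miR-200a-3p and miR-429-3p were named after their values were seen. The paper gives other numbers of TG mice, and all libraries were used. P-values set a difference or correlation against the variation between libraries, in which differences between mice and those from library preparation are mixed.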

Additional observations from a re-analysis of the deposited data

How the results depend on the processing

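The calls of both 5p arms between ages in TG mice held under all 9 alternatives, with log2 fold changes of 0.70 to 0.98 for miR-204-5p (highest adjusted p 0.00569) and 0.89 to 1.18 for miR-211-5p (highest 0.00556). miR-204-3p passed the threshold there with DESeq2 and 1 RUVr factor (0.35, adjusted p = 0.0235), under which 302 miRNAs were called in place of 99. Library total scaling moved the median log2 fold change of all miRNAs in this comparison from -0.088 to -0.29 and the calls from 47 higher and 52 lower to 32 and 76. The depth covariate gave 40 and 26. Between ages in wild-type mice, 1 miRNA was called, against 13 with DESeq2, 205 with the RUVr factor, 2 with library total scaling, 0 to 4 when 1 of the 5 wild-type mice was left out (0 without mouse 2, 3 or 4, and 4 without mouse 1 or 5), 0 without 6-month mouse 8 and 0 with the depth covariate. The RUVr factor called 1 member there, miR-204-5p (0.50, adjusted p = 0.0427), and 7 and 3 miRNAs between genotypes at 3 and 6 months, where the main test called 0. Library total scaling reversed miR-204-3p between ages in wild-type mice (-0.031).

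Between genotypes at 6 months, where all values lie near 0, the sign of miR-204-5p reversed with the replicate block (0.019) and without mouse 8 (0.074). That of miR-204-3p reversed with DESeq2 (-0.024), the RUVr factor (-0.068), RLE scaling (-0.014), library total scaling (-0.12) and the block (-0.11), and that of miR-211-5p with the RUVr factor (-0.0041) and library total scaling (-0.12). The cause was not tested.

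The titles number the mice from 1 in each group, but same-numbered mice are different animals. Their deviations from the group means correlated at 0.226 on average in the TG age comparison (7 of 9 pairs over 0.1) at 0.0351 in the wild-type one (2 of 5), at 0.0068 and 0.259 between genotypes at 3 and 6 months (2 of 5 and 9 of 11) and at 0.146 over all groups (28 of 44). In none was every pair over 0.1, so the numbers were not taken as pairs. With the number as a block, 124 miRNAs were called between ages in TG mice and 250 in wild-type mice, and no member changed its call. These age changes rest on numbers present at both ages, 9 in TG and 5 in wild-type mice. Among the latter are 6-month mice 4 and 5, which had the fewest miRNA counts of their group. The log2 fold change of miR-204-5p between ages in wild-type mice was 0.26 with the block, against 0.50. Depth limits miR-211-3p most, which at 3 reads allows no comparison.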
